A study of Mus musculus with 4 samples.

Results

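The 9 genes described here, Thy1, Nt5e, Eng, Cd44, Vcam1, Mcam, Cspg4, Lepr and Ly6a, encode cell surface proteins that are widely used to recognize or sort mesenchymal stem cells (MSCs). They were selected by gene symbol alone, as 9 of the 32285 gene identifiers in the files, and each symbol matched 1 identifier. Cells came from the proximal end of the mouse lower incisor at postnatal day 15 (P15), in 2 libraries of WT mice and 2 libraries of Din-KO mice. The Din-KO allele was a germline deletion of exon 2 with a LacZ gene trap, so every cell of the mouse carried it, and the number, sex and strain of the mice in a library are not given in the sources used here. Each captured molecule was counted once, by its unique molecular identifier (UMI), and reads start from the 3' end of the transcript, so the counts do not measure the deleted exon and Din was not used to check the labels. The descriptions name the libraries WT-2 and KO-2 (replicate 1) and CD1-WT and CD2-KO (replicate 2), and what CD1 and CD2 stand for is not given.

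MSCs were first described in bone marrow as cells that adhere to plastic and give rise to bone, cartilage and fat. Cultured MSCs are recognized by CD90, CD73 and CD105, the products of Thy1, Nt5e and Eng, while in living tissue many MSCs sit on the walls of blood vessels and carry the pericyte proteins CD146 and NG2, the products of Mcam and Cspg4. The mouse incisor grows throughout life, and its proximal end holds the MSCs that replenish dental pulp cells and odontoblasts, the cells that deposit dentin.

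The filters kept 11310 of 20502 barcodes, 3903 and 1560 from the WT libraries and 4575 and 1272 from the Din-KO libraries (replicates 1 and 2), with median depths from 8016 to 11587.5 UMIs per cell. Between 4 and 12 barcodes were shared by any pair of libraries. Clusters were made without the 9 genes, and 33 of 34 could be named from marker lists. Mesenchyme-like cells were called collagen-positive where Col1a1, Col1a2 and Col3a1 together took at least 0.2% of a cell's UMIs and at least 5 UMIs, which left 5121 cells. Of mesenchyme-like cells, 63.6% (Din-KO replicate 1) to 96.7% (WT replicate 2) passed this rule. Of the collagen-positive cells, 80.0% and 76.8% were dental pulp-like in WT and Din-KO replicate 1, but 34.8% and 28.0% in replicate 2. The 3 dental follicle-like clusters were led by Sfrp2 and Pcp4, by Bmp3 and Nts, and by Mmp13, Spp1 and Ibsp, and they made up 15.6% and 15.9% of collagen-positive cells in replicate 1 and 48.04% and 52.04% in replicate 2. Cells with Y-linked transcripts were 0% of collagen-positive cells in both WT libraries and 44.1% and 45.0% in the Din-KO libraries. Cells with Xist were 98.3% and 96.5% in WT and 36.4% and 43.7% in Din-KO. In the full sets of cells the sex of the mice and the genotype therefore cannot be told apart, and a comparison in cells with Xist alone is given below.

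Because a deeper cell shows more genes, each cell was thinned to 4000 UMIs, and 319 of the 5121 collagen-positive cells were too shallow and were left out. In the remaining 4802 cells each of the 9 markers was detected in a minority. The mean share of cells with a UMI over the 4 libraries was 10.5% for Eng, 7.1% for Cspg4, 7.0% for Cd44, 4.8% for Lepr, 4.5% for Vcam1, 4.0% for Thy1, 2.6% for Ly6a, 2.2% for Nt5e and 0.91% for Mcam. Only 3 of 9 markers exceeded a mean of 5%. This is an order of detection, since counts at the 3' end are not scaled by transcript length, and the spread over libraries was wider than the steps between most neighbours in it. Without thinning, at least 1 of the 9 was found in 61.2% of cells in place of 34.4%.

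**Figure D1:**
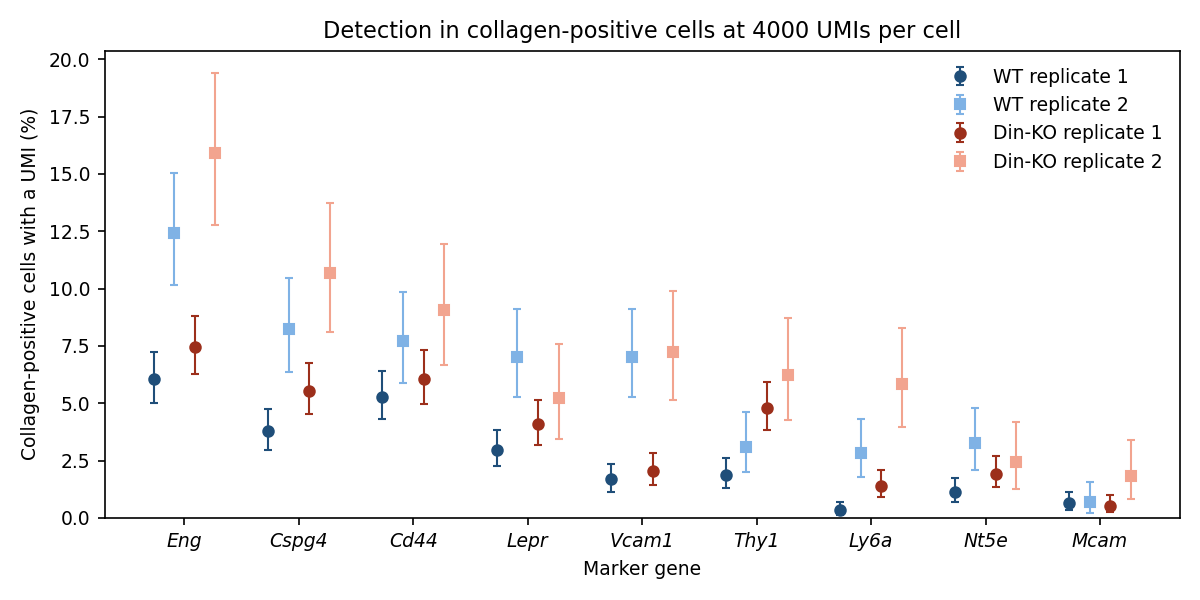
Share of collagen-positive cells with at least 1 UMI of each marker (y axis, percent) in each of the 4 libraries, with every cell thinned to 4000 UMIs and exact 95% Clopper-Pearson intervals that cover counting error only. For Thy1 alone, both Din-KO libraries (4.79% and 6.24%) lay above both WT libraries (1.89% and 3.11%), and in either genotype the square of replicate 2 lay above the circle of replicate 1 for every marker.

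Among the 3 genes that define cultured MSCs, Thy1 encodes a small glycoprotein anchored to the membrane by a lipid, also found on T cells and neurons. A Thy1 UMI was present in 1.89% (replicate 1) and 3.11% (replicate 2) of collagen-positive WT cells, and in 4.79% and 6.24% of Din-KO cells. Values below keep that order of replicates. The groups did not overlap, with WT at 2.50% ± 0.86 and Din-KO at 5.51% ± 1.03 (SD, n = 2 libraries each). Within pulp-like or follicle-like cells alone they did overlap, as given below. Nt5e encodes the enzyme that releases adenosine from AMP outside the cell. Its share was 1.13% and 3.24% in the WT libraries and 1.93% and 2.41% in the Din-KO libraries, with the Din-KO values lying between the WT values. Eng encodes a co-receptor for TGF-β family ligands that is abundant on endothelium. Its share was 6.05% and 12.4% in WT and 7.47% and 15.9% in Din-KO, higher in replicate 2 than in replicate 1 of either genotype.

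Of the adhesion molecules, Cd44, the main receptor for hyaluronan, was detected in 5.29% and 7.70% of collagen-positive WT cells and in 6.07% and 9.05% of Din-KO cells. Vcam1, the ligand through which leukocytes bind by integrins, was detected in 1.67% and 7.03% of WT cells and in 2.04% and 7.24% of Din-KO cells. For Vcam1 the gap between replicates was far wider than that between genotypes.

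Lepr, the leptin receptor and a marker of perivascular MSCs in adult bone marrow, was detected in 2.97% and 7.03% of WT cells and in 4.09% and 5.23% of Din-KO cells. Cspg4, the proteoglycan NG2 of pericytes, was detected in 3.78% and 8.24% of WT cells and in 5.55% and 10.7% of Din-KO cells. Mcam, an adhesion molecule of vessel walls, was the least detected of the 9, at 0.65% and 0.68% in WT and at 0.53% and 1.81% in Din-KO.

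Ly6a, or Sca-1, is a lipid-anchored protein used to sort mouse stem cells and is also a classical interferon-responsive gene. It was detected in 0.32% and 2.84% of WT cells and in 1.40% and 5.84% of Din-KO cells, so that the groups overlapped. Because Ly6a belongs to a family of closely similar genes on chromosome 15, reads shared with its relatives could be assigned differently, and its counts carry that uncertainty.

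A second pattern ran across all 9 genes. In either genotype the share was higher in replicate 2 than in replicate 1 for 9 of 9 markers. It was not particular to them. Of the 18 other surface markers listed below, Cd63 and Cd151 fell in both genotypes, and Itgb1, Itga6 and Cd81 in WT or Din-KO alone. The rest rose in both, such as Ncam1 from 27.8% to 51.4% in WT and from 30.8% to 51.7% in Din-KO. How many of all genes rose was not counted. Depth was equal by construction, and the dental follicle-like share of the cells differed between the replicates as given above. Whether cell makeup bears on the replicate values was not tested. Within pulp-like cells Thy1 was also higher in replicate 2 of either genotype, and within follicle-like cells in WT alone, as given below. The part of cell makeup in the genotype values was not tested beyond the values within pulp-like and follicle-like cells below. With 2 libraries on each side, the smallest two-sided p of an exact permutation test is 0.333, so the shares are given as a description.

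Free RNA in droplets leaves UMIs in cells that do not express a gene. The shares were therefore set against neutrophil-like and epithelium-like cells, which may themselves express some of the genes. In neutrophil-like cells, 107 at 4000 UMIs, Eng, Lepr and Ly6a were found in 0 cells, which allows a share of up to 2.80%. Thy1, Mcam and Cspg4 were found in 1 cell each (0.93%), Vcam1 in 5 (4.67%), Nt5e in 12 (11.2%) and Cd44 in 66 (61.7%). For Ly6a, 6 of 498 epithelium-like cells held a UMI (1.20%), with an interval from 0.44% to 2.60%, against 80 of 4802 collagen-positive cells (1.67%). Pooled over all libraries, the collagen-positive shares of Nt5e, Vcam1 and Cd44, 1.87%, 3.21% and 6.33%, lay below those of neutrophil-like cells. Those of Mcam (0.73%) and Ly6a (1.67%) lay within the neutrophil-like and epithelium-like intervals. These comparisons cannot tell expression from free RNA, so no expression is read from these pooled whole-class values. Pooling hides a spread for Ly6a, with library means of 1.58% in WT and 3.62% in Din-KO. Its shares in replicate 2 of either genotype, given above, exceeded the upper limit of 2.60%. Whether this is expression was not tested. B-like cells held neither Nt5e nor Vcam1 in 200 cells. Nt5e was also found in 0 of 632 endothelium-like, 0 of 228 monocyte or dendritic-like and 4 of 1217 macrophage-like cells. T or NK-like cells held it in 6 of 129 and epithelium-like cells in 6 of 498. Vcam1 was found in 2 of 498 epithelium-like cells, but in 720 of 1217 macrophage-like cells. Whether the neutrophil-like UMIs of these 2 genes are free RNA or expression was not tested. Over the dental follicle-like cells of all libraries, Lepr (13.2%) lay above the neutrophil-like interval and Ly6a (4.52%) above the epithelium-like interval. Vcam1 (10.02%) lay above the neutrophil-like share but within its interval, which reached 10.6%, Mcam (1.48%) also lay within the neutrophil-like interval, and Nt5e (4.84%) stayed below the neutrophil-like share.

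Dental pulp-like and dental follicle-like cells carried different members of the set. Compared on UMIs summed per library, with the library as a block, 8 of 9 markers differed between the 2 tissues by edgeR's quasi-likelihood test at an adjusted p of 0.05, 6 higher and 2 lower in follicle-like cells. Among all 12650 genes tested 34.9% differed, 17.9% higher and 17% lower. The median log2 fold change of the 9 was 1.47 against -0.02 for all genes.

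Of the set, Thy1 was higher in pulp-like than in follicle-like cells by the widest margin. It was not particular to pulp: pooled over libraries, 3.79% of pulp-like, 8.93% of odontoblast-like and 19.6% of perivascular-like cells held it. Its share in pulp-like cells was 1.83% and 5.58% in WT and 4.61% and 14.6% in Din-KO, and in follicle-like cells 0.34% and 0.55% in WT and 2.71% and 0.38% in Din-KO. In neither tissue did these shares separate the genotypes. Each library thus had more Thy1 in pulp-like than in follicle-like cells, and the log2 fold change of summed UMIs was -3.47 (SE 0.30, edgeR adjusted p = 0.000154). Odontoblast-like cells held it in 8.14% and 5.69% of WT cells and in 10.9% and 10.8% of Din-KO cells.

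Lepr, Vcam1 and Nt5e were higher in follicle-like cells. A Lepr UMI was present in 13.0% and 12.6% of follicle-like WT cells and in 19.3% and 7.55% of follicle-like Din-KO cells, against 1.15% and 2.39% (WT) and 0.94% and 3.08% (Din-KO) of pulp-like cells, with a log2 fold change of 3.56 (SE 0.30, edgeR adjusted p = 0.000129). Vcam1 reached 7.88% and 12.6% in follicle-like WT cells and 6.44% and 12.8% in follicle-like Din-KO cells, but only 0.47% to 1.59% in pulp-like cells of the 4 libraries, a log2 fold change of 3.51 (SE 0.15, edgeR adjusted p = 8.5e-06). Nt5e was found in 5.14% and 5.74% of follicle-like WT cells and in 4.07% and 4.15% of follicle-like Din-KO cells, with at most 1.33% in pulp-like cells, a log2 fold change of 2.95 (SE 0.54, edgeR adjusted p = 0.0049). All of these Nt5e shares lay below the neutrophil-like 11.2%, which may be free RNA or expression. For these 3 genes no library had a pulp-like share that reached its follicle-like share.

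Smaller differences were seen for Ly6a, Mcam and Cd44, which were higher in follicle-like cells by 1.72, 1.47 and 0.97 on the log2 scale (edgeR adjusted p = 0.029, 0.025 and 0.022). Without Din-KO replicate 2 none of these 3 was called (edgeR adjusted p = 0.12, 0.066 and 0.085), and Mcam was also lost without WT or Din-KO replicate 1. Cspg4 was lower by 0.41 (SE 0.13, edgeR adjusted p = 0.047), a call that did not hold in most alternatives, and Eng at 0.48 (SE 0.16, edgeR adjusted p = 0.051) did not pass. Cspg4 was most often detected in odontoblast-like cells among the collagen-positive classes, with 15.1% and 17.1% in WT and 9.49% and 17.6% in Din-KO.

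**Figure D2:**
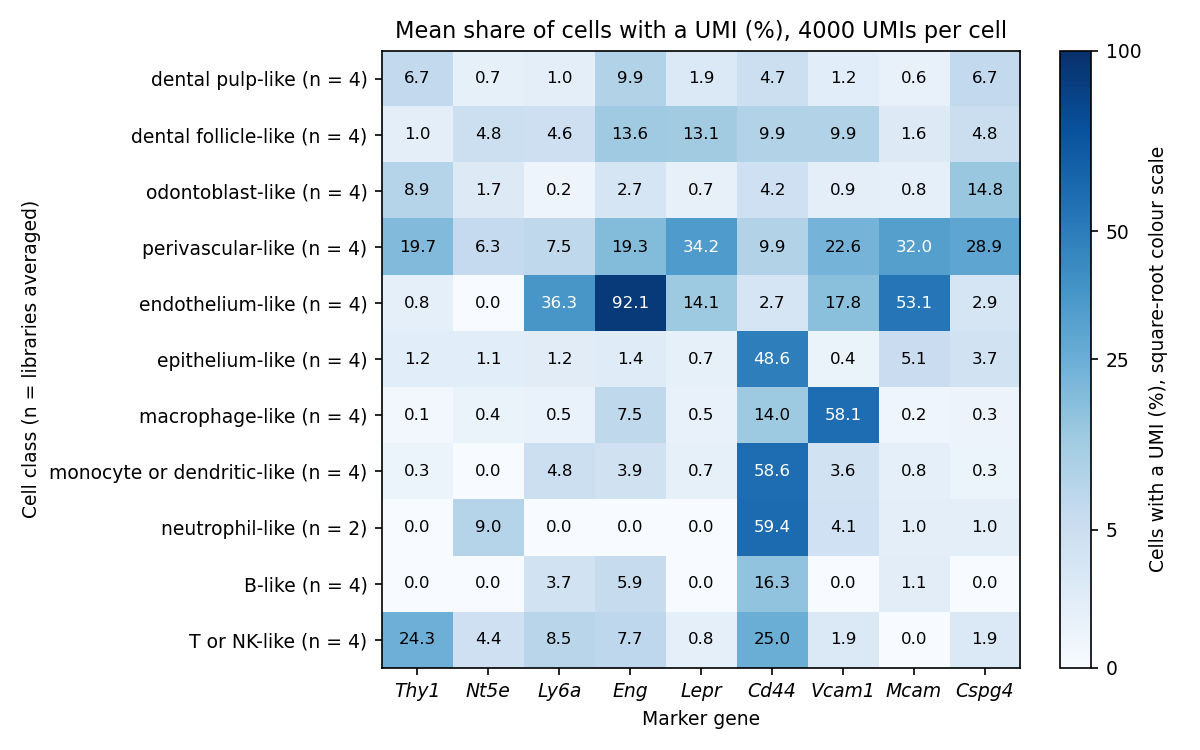
Mean share of cells with a UMI of each marker (number in each field and square-root colour scale, percent) at 4000 UMIs per cell, by cell class (rows) and gene (columns), averaged over the libraries with at least 20 cells of the class. Eng reached 92.1% in endothelium-like, Vcam1 58.1% in macrophage-like and Cd44 59.4% in neutrophil-like cells, while in the 3 collagen-positive classes at the top the highest value was 14.8%, for Cspg4 in odontoblast-like cells.

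The markers were not limited to mesenchyme. Non-mesenchymal cells were those of immune, endothelial, epithelial, glial and erythroid clusters that did not pass the collagen rule, which left out 201 cells. They held at least 1 of the 9 in 67.2% ± 7.2 of cells, against 34.4% ± 11.9 of collagen-positive cells (SD, n = 4 libraries). In summed UMIs all 9 markers differed between the 2 sets of cells by edgeR's quasi-likelihood test, 4 higher in collagen-positive cells and 5 lower, where 56.1% of 14878 genes differed, 28% higher and 28.1% lower. Higher in collagen-positive cells were Nt5e (log2 fold change 1.55, SE 0.32), Thy1 (1.32, SE 0.16), Cspg4 (1.19, SE 0.14) and Lepr (1.04, SE 0.20), with edgeR adjusted p of 0.0078, 0.00096, 0.00087 and 0.0063. Lower were Mcam (-4.15, SE 0.17), Vcam1 (-3.57, SE 0.57), Eng (-3.11, SE 0.14), Ly6a (-2.71, SE 0.67) and Cd44 (-2.35, SE 0.18), with edgeR adjusted p from 1.9e-05 for Mcam to 0.015 for Ly6a. The call of Lepr was lost in thinned cells (0.62, edgeR adjusted p = 0.085, range over alternatives 0.00027 to 0.085) and that of Ly6a without Din-KO replicate 1 (-2.41, edgeR adjusted p = 0.072).

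Each of the 5 lower genes was detected more often in other classes. Eng was present in 88.9% and 93.7% of endothelium-like WT cells and in 91.9% and 93.9% of Din-KO cells, and Mcam in 50.7% and 58.2% of WT and 51.2% and 52.0% of Din-KO endothelium-like cells. Glia-like cells that did not pass the collagen rule held Mcam in 21 of 35. Ly6a was present in 42.0% and 11.4% of endothelium-like WT cells and in 56.1% and 35.7% of Din-KO cells. Vcam1 was present in 53.6% and 52.3% of macrophage-like WT cells and in 62.9% and 63.5% of Din-KO cells. Cd44 was present in 38.02% and 53.3% of epithelium-like WT cells and 44.2% and 58.8% of Din-KO cells, in 36.5% to 69.4% of monocyte or dendritic-like cells of the 4 libraries and in 66 of 107 neutrophil-like cells. Among lymphocytes Thy1 was found in 12.9% to 40.9% of T or NK-like cells.

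Endothelium-like cells, the lining of vessels, separated the set most sharply. Of 9 markers 5 were higher than in collagen-positive cells and 3 lower by edgeR's quasi-likelihood test, where 57.6% of 13364 genes differed, 28% higher and 29.7% lower. Mcam was higher by 6.22 (SE 0.18), Eng by 5.30 (SE 0.11), Ly6a by 4.77 (SE 0.58), Vcam1 by 2.82 (SE 0.14) and Lepr by 1.04 (SE 0.16) on the log2 scale. Cd44 was lower, at -1.27 (SE 0.20), and Thy1 at -0.75 (SE 0.21, edgeR adjusted p = 0.018), a call lost without Din-KO replicate 1 or 2 (0.064 and 0.056). Nt5e was found in 0 of 632 endothelium-like cells at 4000 UMIs, which allows a share of up to 0.47%, and its fitted value (edgeR adjusted p = 0.00026) rested on 1 UMI in all endothelium-like cells. Cspg4 did not pass, at -0.34 (SE 0.41, edgeR adjusted p = 0.52).

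Perivascular-like cells were a single cluster of 237 cells, made without the 9 genes and led by Rgs5, Ndufa4l2, Lpl and Notch3. By edgeR's quasi-likelihood test 9 of 9 markers were higher than in collagen-positive cells, where 18.2% of 12895 genes differed and 9.85% were higher and 8.35% lower. The median log2 fold change of the 9 was 2.49, against -0.03 over all genes. Mcam led with 5.89 (SE 0.23), followed by Lepr with 3.12 (SE 0.31), Cspg4 with 2.60 (SE 0.29), Thy1 with 2.57 (SE 0.42) and Vcam1 with 2.49 (SE 0.23). For the other markers the values were 1.57 for Nt5e, 1.42 for Ly6a, 1.25 for Eng and 1.19 for Cd44, with edgeR adjusted p of at most 0.013. The calls of Nt5e, Ly6a and Cd44 were lost in thinned cells and also without the library block, and those of Nt5e and Ly6a also without Din-KO replicate 2 (edgeR adjusted p = 0.083 and 0.14) and that of Nt5e without WT replicate 2 (0.12).

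Levels within the perivascular-like cluster were uneven between libraries. Lepr was detected in 7.14% and 64.2% of its cells in the WT libraries and in 25.5% and 40.0% in the Din-KO libraries, so that the extremes were both WT. Cspg4 ran from 42.9% (WT replicate 1) to 20% (Din-KO replicate 2), and Thy1 from 28.6% to 8.89% in the same libraries. Mcam was present in 33.3% and 40.3% of WT cells and 34.5% and 20% of Din-KO cells. These shares rest on 42 to 67 cells per library.

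**Figure D3:**
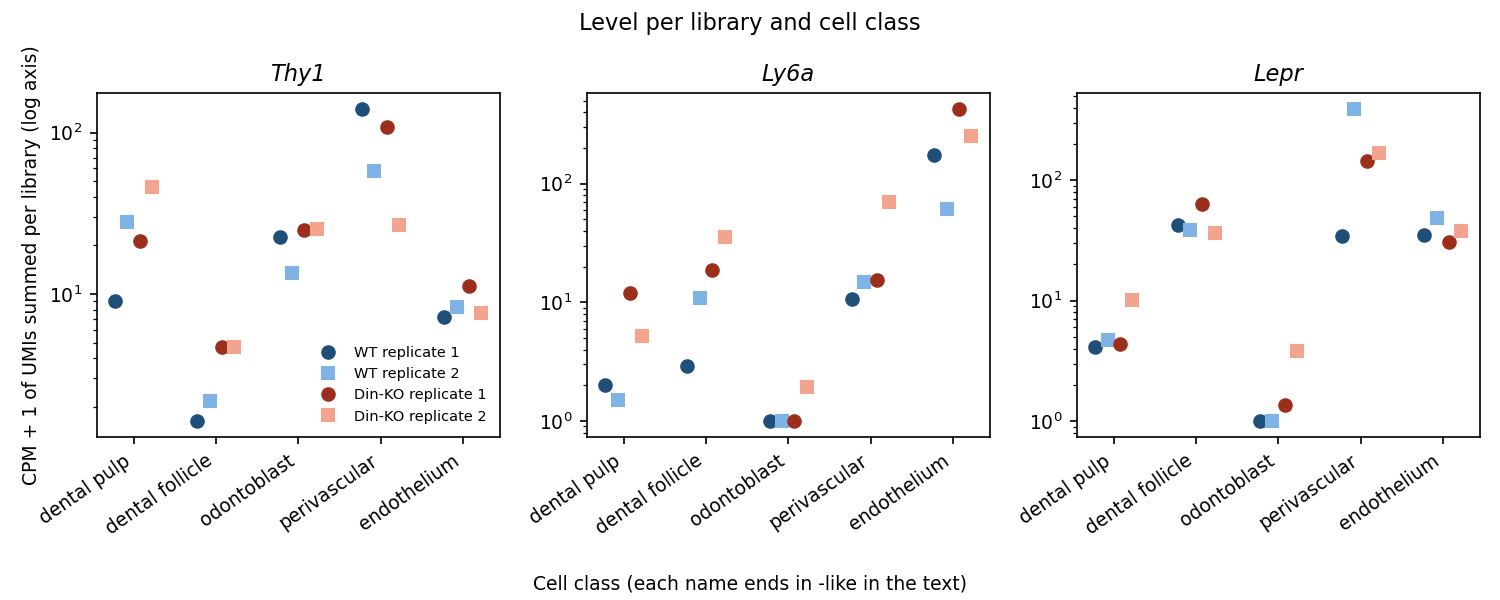
Level of Thy1, Ly6a and Lepr in CPM (UMIs scaled to the total of the sum) plus 1 on a log axis, from UMIs summed per library over the cells of 5 classes (x axis). Circles are replicate 1, squares replicate 2, blue WT and red Din-KO, with Thy1 lowest in dental follicle-like cells, Ly6a highest in endothelium-like cells with both Din-KO libraries (425 and 249 CPM) above both WT libraries (173 and 60.7 CPM), and Lepr in perivascular-like cells running from 33.2 to 387 CPM.

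The genotypes were compared in collagen-positive cells on UMIs summed per library. Levels are in CPM. Thy1 stood at 7.54 and 10.6 in WT and at 16.9 and 16.2 in Din-KO, and Ly6a at 1.14 and 5.15 in WT and at 10.98 and 20.04 in Din-KO. Both Din-KO libraries were above both WT libraries for Thy1, Ly6a and Mcam, 3 of 9 markers, where this held for 9.87% of all 14804 genes tested, and for no marker were both below (7.65% of all genes). Mcam stood at 1.85 and 2.74 in WT and at 2.94 and 4.10 in Din-KO. In the shares at 4000 UMIs this order held for Thy1 alone, 1 of 9 markers, and those of Ly6a and Mcam overlapped. For shares, the part of all genes in this order was not counted. From the whole-class shares of Ly6a and Mcam no expression was read above.

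No marker passed the main test between genotypes, which has no block for the replicate number. A fit with that block called Ly6a, as given in the part on processing. On simulated counts with the spread of these libraries, the main test recovered 0% of the 2-fold and 1% of the 4-fold changes put in. A count of 0 therefore says little about whether the genotypes differ. By edgeR's quasi-likelihood test 0 of 9 markers and 0 of 14804 genes (0%) reached an adjusted p of 0.05, with 184 genes at an unadjusted p under 0.05, and DESeq2 called 20 genes. The log2 fold change was 2.30 for Ly6a (SE 0.80, edgeR unadjusted p = 0.037) and 0.86 for Thy1 (SE 0.26, edgeR unadjusted p = 0.026), each with an edgeR adjusted p of 1.0. For the others it was 0.67 for Cd44 (SE 0.43), 0.60 for Mcam (SE 0.44), 0.56 for Cspg4 (SE 0.49), 0.38 for Vcam1 (SE 0.81), 0.35 for Eng (SE 0.46), 0.29 for Lepr (SE 0.34) and -0.16 for Nt5e (SE 0.50). The median of the 9 was 0.56, against -0.00 for all genes. With a library left out the count of called genes ran up to 17, without Din-KO replicate 1.

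Ly6a and Thy1 were also compared within each tissue. In pulp-like cells alone the log2 fold change was 3.23 for Ly6a and 0.91 for Thy1, and in follicle-like cells alone 2.03 and 1.92, selections added after the data had been seen, in which neither gene passed edgeR's adjusted p. Pooled over genotypes, the pulp-like Ly6a share, 24 of 3136 cells (0.77%), lay below the epithelium-like 1.20%, so the pooled share sits at background level. By genotype, mean Ly6a was 0.76 CPM in WT and 7.60 CPM in Din-KO pulp-like cells. In epithelium-like cells it was 2.13 and 3.13 CPM, so the pulp-like mean lay below it in WT and above it in Din-KO. For Thy1 in pulp-like cells the libraries of the genotypes overlapped, both in CPM (means of 17.5 in WT and 32.7 in Din-KO) and in the shares given above. In follicle-like cells Thy1 had 3 and 9 UMIs in the WT libraries and 17 and 22 in the Din-KO libraries, while its shares at 4000 UMIs rested on 1 and 2 cells in WT and 8 and 1 in Din-KO and overlapped. In odontoblast-like cells the WT libraries held 21.5 and 12.6 CPM of Thy1 and the Din-KO libraries 24.04 and 24.4 CPM, and Ly6a was at 0 CPM in each library but Din-KO replicate 2 (0.95 CPM). In cells with Xist alone, which sets the Y-bearing cells aside, it was 2.52 for Ly6a and 0.86 for Thy1. Vcam1 and Lepr turned to -0.57 and -0.23 in that selection, and Nt5e turned to 1.86 in pulp-like cells alone.

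Levels of Ly6a were then set side by side across classes. In pulp-like cells the mean was 0.76 CPM in WT and 7.6 CPM in Din-KO, in follicle-like cells 5.92 and 26.3, in perivascular-like cells 11.8 and 41.5, in monocyte or dendritic-like cells 1.91 and 39.0, in B-like cells 2.47 and 64.2 and in T or NK-like cells 5.33 and 90.4. In odontoblast-like cells it was 0 and 0.47, in epithelium-like cells 2.13 and 3.13 and in macrophage-like cells 0.63 and 5.02, and in these 3 classes the libraries of the genotypes overlapped. For none of the classes named here was the share of all genes with no such overlap counted. The classes of a library share its mice and are not independent, and of the 9 classes named here only pulp-like and follicle-like cells were tested between genotypes.

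The WT libraries of endothelium-like cells had Ly6a at 173 and 60.7 CPM and the Din-KO libraries at 425 and 249 CPM, with a log2 fold change of 1.51 (SE 0.53, edgeR unadjusted p = 0.027). For Cspg4 these values were 16.2 and 41.7 CPM, against 13.1 and 6.62 CPM, with a log2 fold change of -1.37 (SE 0.54, edgeR unadjusted p = 0.041). At 4000 UMIs 14 of 632 endothelium-like cells held Cspg4 (2.22%), within the neutrophil-like interval (0.02% to 5.10%). Neither gene's libraries overlapped between the genotypes, where 13.5% of 11070 genes lay above and 12.6% below in this way. None of the 8 markers that could be tested passed, at an edgeR adjusted p of 1.0 for each, and 1 gene in all, 0.00903%, did, with 338 at an unadjusted p under 0.05. That gene was H2-Q7, which encodes an MHC class I molecule (log2 fold change 6.38, SE 0.38, edgeR adjusted p = 0.014). Without WT replicate 1 the log2 fold changes of Ly6a and Cspg4 were 2.55 and -1.92. Over all alternatives they ran from 0.95 to 2.55 for Ly6a and from -2.06 to -0.65 for Cspg4. In this comparison 5 alternative values of single markers came past the threshold. Among them were Ly6a, with the replicate number as a block and in at least 1 other alternative, and Cspg4.

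Whether the genotype difference itself differed between endothelium-like and collagen-positive cells was tested as an interaction. No member and none of 14364 genes passed by edgeR's adjusted p (0%), with 371 at an unadjusted p under 0.05. The largest unadjusted signal among the 9 was that of Cspg4, at -1.87 (SE 0.51, edgeR unadjusted p = 0.0082, adjusted p = 1).

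Few collagen-positive cells held several markers at once. At least 1 of the 9 was found in 21.2% and 40.7% of WT cells and in 28.3% and 47.5% of Din-KO cells, and 3 or more in 0.22% and 1.08% of WT cells and in 0.88% and 3.02% of Din-KO cells. The mean share with 3 or more was 1.30% of collagen-positive cells, 34.9% of endothelium-like and 29.1% of perivascular-like cells. The share of cells with at least 1 marker was 47.7% ± 8.7 in follicle-like, 28.0% ± 9.5 in pulp-like, 29.9% ± 2.5 in odontoblast-like, 80.6% ± 11.2 in perivascular-like and 98.1% ± 0.63 in endothelium-like cells (SD, n = 4 libraries).

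The combination of Thy1, Nt5e and Eng, by which cultured MSCs are recognized, was found in 0 of 4802 collagen-positive cells at 4000 UMIs. The zero allows a share of up to 0.16%, 0.41%, 0.18% and 0.60% in WT replicate 1 and 2 and Din-KO replicate 1 and 2. If the 3 genes were detected independently of each other within a library, 0.35 cells would be expected, so that this depth could not show the combination. Without thinning, 7 of 5121 cells held all 3, with 6.19 expected, 0 and 3 in the WT libraries and 1 and 3 in the Din-KO libraries. Perivascular-like cells held all 3 in 0 of 209 cells when thinned and in 3 of 237 cells without thinning, with 3.90 expected.

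For pairs of markers, the observed number of cells was set beside the number expected if detection of both genes were independent within each library, and beside the same within each library and cluster. The 8 pairs with the most cells, with a tie at the end, were Eng and Cd44 (28 cells, 27.9 expected), Eng and Cspg4 (26, 27.3 expected), Eng and Lepr (26, 19.2 expected), Ly6a and Eng (23, 9.38 expected), Eng and Vcam1 (22, 16.7 expected), Ly6a and Cd44 (20, 6.02 expected), Cd44 and Cspg4 (18, 19.0 expected), and Cd44 and Vcam1 with Nt5e and Lepr (16 each, 11.03 and 4.29 expected). Pairs of Eng, Cspg4 and Cd44, the most detected genes, lay within 2 cells of the number expected, and the other listed pairs lay above it. Pairs were listed by observed cells, so rarely detected genes such as Ly6a and Nt5e enter only where they exceed expectation. Outside the list, Ly6a with Vcam1 (14 cells, 4.17 expected) lay above it. Ly6a with Cspg4 (6, 6.38 expected) and Thy1 with Nt5e (2, 3.47 expected) lay below. Of 36 pairs, 4 were above expectation in all 4 libraries and 4 below, while 19 pairs had fewer than 10 cells.

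Ly6a and Cd44 were found together 3.32 times as often as under independence, from 2.47 to 4.19 times in the single libraries. Within clusters 8.70 cells were expected and the ratio was 2.30, again above 1 in 4 of 4 libraries, and no other pair held in this way. Nt5e and Lepr had a ratio of 3.73, which fell to 1.76 within clusters, where 9.08 cells were expected and 3 of 4 libraries were above 1. Below expectation in all libraries were Thy1 with Eng, Ly6a and Vcam1, and Lepr with Cspg4. Only Lepr and Cspg4 (6 cells, 13.0 expected) stayed below 1 in 4 libraries within clusters, at 0.62. These ratios rest on few cells and are a description with no test.

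**Figure D4:**
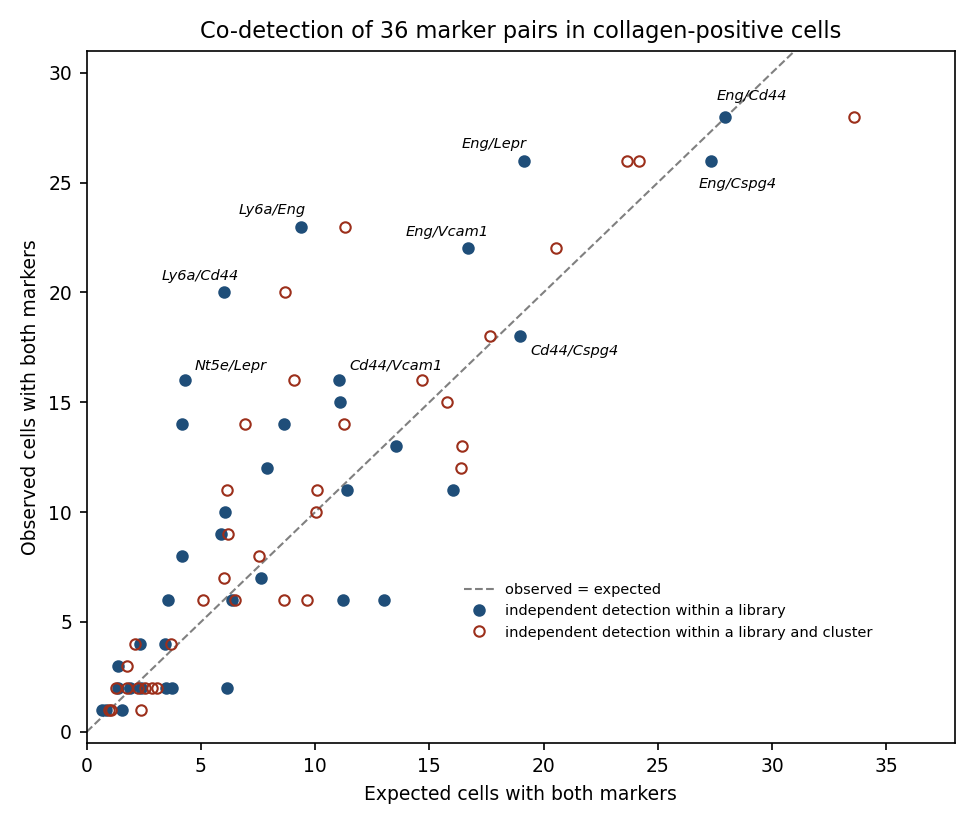
Observed (y axis) against expected (x axis) number of collagen-positive cells with both markers of a pair, for 36 pairs over 4802 cells thinned to 4000 UMIs. Filled points take detection as independent within a library and open circles within a library and cluster, and the dashed line marks equality. Ly6a with Cd44 lies above the line both ways (20 cells against 6.02 and 8.70), whereas Eng with Cd44 lies on it or below (28 against 27.9 and 33.6).

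In vessel classes the markers combined in other ways. In endothelium-like cells Eng and Mcam were found together in 298 cells (301 expected), and Ly6a and Eng in 246 (246 expected). In perivascular-like cells Mcam and Cspg4 shared 35 cells (19.8 expected) and Lepr and Vcam1 34 cells (24.4 expected), each above 1 in 4 of 4 libraries, whereas Lepr and Mcam shared 21 (26.8 expected). In macrophage-like cells Cd44 and Vcam1 shared 78 cells (89.8 expected).

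Gli1 and Acta2, which the study uses among its markers of incisor MSC subsets, were set against the 9 markers in collagen-positive cells. Gli1, a hedgehog target that marks incisor MSCs, was found with Thy1 in 44 cells (22.9 expected) and with Nt5e in 9 (12.1 expected). Acta2, the smooth muscle actin, was found with Lepr in 92 cells (28.9 expected), with Vcam1 in 62 (25.1 expected) and with Nt5e in 36 (13.0 expected), but with Thy1 in 14 (23.9 expected) and with Cspg4 in 27 (41.1 expected). These pairs were chosen after their values were seen, and they were not divided by cluster.

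A list of 18 other surface markers of MSCs gave a comparison. Between genotypes in collagen-positive cells 0 of 18 passed edgeR's adjusted p, with log2 fold changes from -0.58 to 0.78 and a median of 0.11, against -0.00 for all genes. Against non-mesenchymal cells 7 of 18 were higher and 6 lower in collagen-positive cells. In endothelium-like cells 10 were higher and 8 lower than in collagen-positive cells, in perivascular-like cells 10 of 17 tested were higher and 1 lower, and in follicle-like against pulp-like cells 10 of 16 tested were higher and 2 lower.

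To place each marker among all genes, the Pearson correlation of log2 CPM was computed over 44 sums, one for each library and class with enough cells, across 16100 genes. The sums of a library share its mice and depth, so the values are a description with no test. Thy1 lay nearest to Bcl2 (r = 0.728), Cysltr2 and Ncald, and Nt5e to Ankmy1 (r = 0.761), Gpr27 and Tex15. Eng lay nearest to Ccdc85b (r = 0.923), Adcy4 and Clic4, Mcam to Tspan12 (r = 0.936), Col18a1 and Cav1, and Ly6a to Gbp2b (r = 0.747), Tbxa2r and Gbp3. Lepr lay close to Hic1 (r = 0.955) and Ntn1 (r = 0.933), and Cspg4 nearest to Airn (r = 0.883), Vstm4 and Arhgap42. Vcam1 lay nearest to Cp (r = 0.885), Selenop and Tmem140, and Cd44 to Rassf5 (r = 0.822), Plxnc1 and Galnt3. Among the 9 themselves the closest were Lepr and Mcam (r = 0.784), Ly6a and Eng (r = 0.695), Eng and Mcam (r = 0.693) and Eng and Lepr (r = 0.68), and Cd44 ran against Eng (r = -0.529).

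All 9 are protein-coding genes in the GRCm38 annotation (GENCODE), and 4 of them lie on chromosome 9. Thy1 (ENSMUSG00000032011) spans chr9:44043384-44048579 and Mcam (ENSMUSG00000032135) chr9:44134469-44142727, both on the plus strand and close to each other. Nt5e (ENSMUSG00000032420) lies at chr9:88327197-88372092 and Cspg4 (ENSMUSG00000032911) at chr9:56865033-56899870, also on the plus strand. Eng (ENSMUSG00000026814, chr2:32646595-32682669, plus strand) overlaps other annotated genes, among them Fpgs in antisense at its 3' end, and Cd44 (ENSMUSG00000005087) lies at chr2:102811141-102901665 on the minus strand. Lepr (ENSMUSG00000057722) lies at chr4:101717404-101815352 on the plus strand, Vcam1 (ENSMUSG00000027962) at chr3:116109949-116129688 and Ly6a (ENSMUSG00000075602) at chr15:74994877-74998031, both on the minus strand. Thy1 and Mcam, although neighbours, differed in where they were found, with endothelium-like means of 0.8% for Thy1 and 53.1% for Mcam.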

How the data were processed

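Proximal lower-incisor tissue of P15 WT and Din-KO mice was dissociated, depleted of dead cells and run on the 10x Genomics 3' v3.1 chemistry. The authors made UMI counts per gene and barcode with Cell Ranger against mm10/GRCm38 and deposited these counts without normalization. Total counts per library ran from 32198098 to 54348039. Groups were taken from the sample titles.

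The study's filters were applied, a minimum of 1000 detected genes and limits of 10% on mitochondrial and 3% on hemoglobin UMIs. Seurat 5.3.0 integrated the libraries on 1991 variable genes, without the 9 markers, and clustered them (30 components, resolution 1). Classes were named where at least 3 markers were detected and the relative detection of the class markers reached 0.4. The unnamed cluster had 5 markers detected, at a relative detection of 0.331. Scrublet in scanpy 1.11.5 called 0.221% of cells as doublets, too few to have worked, so the top 5% of scores were removed as an alternative. Cells were thinned to 4000 UMIs for shares, and intervals (exact Clopper-Pearson, 95%) and limits (3 counts) cover counting error only. Free RNA was not removed. Sums per library and class were tested in edgeR 4.0.16 (TMM, filter on low counts, quasi-likelihood, Benjamini-Hochberg over all genes), with the library as a block between classes. Nothing says whether the libraries came from separate litters, so p-values measure only the spread between these libraries, which may be technical. DESeq2 1.42.0, no filter, other gates, left-out libraries and other depths were alternatives. The edgeR fits of genotype in collagen-positive cells and of endothelium-like against collagen-positive cells were tested on simulated counts. At the spread of the data the genotype fit recovered 0% of 2-fold and 1% of 4-fold changes. The fit between classes recovered 61% and 93%.

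Named were the 9 markers, the 8 pairs shared by most cells, the triple Thy1, Nt5e and Eng, the 3 most correlated genes of each marker, and list genes past the threshold between genotypes, of which there were none. Others follow none of these rules and are to be read as chosen after seeing their values. Among them are the pairs outside the list and the pairs of vessel and macrophage-like cells. The markers and lists were chosen with earlier results of these data known. Sequences of the encoded proteins were not used here. A few correlated genes and one list are not reported here.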

Additional observations from a re-analysis of the deposited data

Results flagged for a closer look

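Among the 5 classes of pulp-like, follicle-like, odontoblast-like, perivascular-like and endothelium-like cells, 2 markers had libraries of the genotypes in opposite order in 2 classes, with no overlap in either. How many of all genes do so was not counted. Nt5e was higher in both Din-KO libraries in dental pulp-like cells (mean 0.77 CPM in WT, 2.41 in Din-KO) and lower in both in dental follicle-like cells (14.2 in WT, 8.75 in Din-KO), a gap of 1.583 between the 2 differences in log2(CPM + 1). Cspg4 was higher in both Din-KO libraries in odontoblast-like cells (47.7 CPM in WT, 61.5 in Din-KO) and lower in both in endothelium-like cells (28.9 in WT, 9.85 in Din-KO), a gap of 1.824. Interaction tests added after the data had been seen did not pass over all genes. For Nt5e the follicle-like effect minus the pulp-like effect was -2.72 in log2 (SE 0.59, edgeR unadjusted p = 0.0031, adjusted p = 1), with 0 of 13515 genes called and 301 at an unadjusted p under 0.05. For Cspg4 the endothelium-like effect minus the odontoblast-like effect was -1.54 (SE 0.49, edgeR unadjusted p = 0.013, adjusted p = 1), with 0 of 12473 genes called and 398 at an unadjusted p under 0.05. At 4000 UMIs the Nt5e shares of pulp-like cells (0.27% and 0.40% in WT, 1.33% and 0.77% in Din-KO) and of follicle-like cells (5.14% and 5.74% in WT, 4.07% and 4.15% in Din-KO) all lie below the neutrophil-like share of 11.2%, which may be free RNA or expression. For Cspg4 the odontoblast-like shares at that depth, 15.1% and 17.1% in WT and 9.49% and 17.6% in Din-KO, overlapped, with Din-KO replicate 1 the lowest, so they do not follow the order of the CPM. Its endothelium-like share over all libraries, 14 of 632 cells (2.22%), lay within the neutrophil-like interval (0.02% to 5.10%). In the other 5 classes Lepr (macrophage-like), Mcam (B-like) and Cd44 (T or NK-like) were also lower in both Din-KO libraries, while each was higher in both in some other class, which was not tested. Mean levels in WT and Din-KO were 1.01 and 0.32 CPM for Lepr, 2.47 and 0 for Mcam and 135 and 69.6 for Cd44. At 4000 UMIs, 5 of 1217 macrophage-like cells held Lepr and 3 of 200 B-like cells held Mcam, both near the floor. The share of all genes in this order was not counted for these classes.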

How the results depend on the processing

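Of 651 alternative values for the log2 folds of single markers, 585 kept direction and side of the threshold, 11 came past it, 31 fell below it and 24 reversed. Between genotypes in collagen-positive cells 0 genes were called by edgeR, with 20 by DESeq2, 10 without a filter, and 0 to 17 (without Din-KO replicate 1) with a library left out, where the lone library of a group is assumed to vary like the others. In endothelium-like cells (1 gene) the count was 47 by DESeq2, 175 without a filter, 0 in cells with Xist alone, 21 without the highest doublet scores, 11 with thinned cells and 6 to 110 (without WT replicate 1) with a library left out. The replicate block raised these counts to 141 (113 higher, 28 lower) and 224 and called Ly6a in both (2.48 and 1.59, edgeR adjusted p = 0.0095 and 0.00011). Deviations from the group means correlated at 0.776 between libraries of equal number. With 2 libraries a group both numbers must give this same value. Also, 2 pairs with no stated shared origin do not make a paired design. Perivascular-like against collagen-positive cells (2347 genes) gave 1322 without the library block, 1312 with thinned cells and 1542 to 2143 with a library left out. Follicle-like against pulp-like cells (4410) gave 2811 when thinned and 2990 to 4216 with a library left out, and the interaction 0 to 5. The share of cells with any marker (34.4%) was 20.6% at 2000 UMIs and 61.2% without thinning. Pairs above expectation in all libraries (4) were 1 at 2000 UMIs, 19 without thinning and 4 to 10 with a library left out. Reversals of the genotype fold in collagen-positive cells were Lepr at -0.23 and Vcam1 at -0.57 in cells with Xist alone, Lepr at -0.093 with perivascular-like cells included, Vcam1 at -0.003 without cells holding a UMI of Ptprc, Pecam1, Cdh5 or Epcam, and Nt5e at 1.86 and Mcam at -0.23 in pulp-like cells alone. The interaction for Eng was 0.0069 with thinned cells. With a library left out, collagen-positive genotype folds ran from -0.63 to 0.48 for Nt5e, -0.15 to 0.89 for Eng, -0.072 to 0.72 for Lepr, -0.58 to 1.60 for Vcam1, 1.55 to 3.73 for Ly6a, 0.62 to 1.10 for Thy1, 0.05 to 1.11 for Cd44, 0.057 to 1.26 for Cspg4 and 0.33 to 0.89 for Mcam, endothelium-like folds from -0.02 to 0.68 for Thy1, -0.18 to 0.65 for Eng, -0.90 to 0.98 for Vcam1 and -0.31 to 0.22 for Mcam, that of Cspg4 in endothelium-like against collagen-positive cells from -0.66 to 0.12, and the interaction from -2.80 to 1.00 for Ly6a and -0.26 to 0.017 for Eng. Thinned cells left too few UMIs for Thy1 and Nt5e in endothelium-like cells, for Thy1, Ly6a and Mcam between tissues and for Mcam between genotypes. The cause of these moves was not tested. At 4000 UMIs a marker in under 1% of cells rests on few UMIs, and 2 libraries a group limit every genotype value.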
